A study of Saccharomyces cerevisiae with 21 samples.

Results

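The hexose transporters and glucose sensors of budding yeast were described here as 10 genes of the 6407 in the table of RNA levels, taken by name: the transporter genes HXT1, HXT2, HXT3, HXT4, HXT5, HXT6, HXT7 and HXT10, and the sensor genes SNF3 and RGT2. All 10 names matched a row. The series asks how the nucleosome remodeling complex Swi/Snf takes part in transcriptional interference, and measured polyadenylated RNA of Saccharomyces cerevisiae, strain background W303, grown in the glucose medium YPD to mid-log phase. It holds 21 libraries in 7 groups of 3, and the replicates of a strain came from separate days. In the SWI3 family every strain, wild type included, is deleted for its own SWI3, which encodes a structural subunit. The group SWI3 carries a wild-type copy (SWI3::LEU2), swi3-E815X a mutant copy (swi3-E815X::LEU2) and swi3del LEU2 alone. In the SNF2 family every strain is likewise deleted for its own SNF2, which encodes the ATPase. The group SNF2 carries SNF2::LEU2, snf2-W935R and snf2-Q928K carry the mutant copies snf2-W935R::LEU2 and snf2-Q928K::LEU2, and snf2del carries LEU2 alone.

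Yeast takes up glucose by facilitated diffusion through a family of Hxt carriers that differ in affinity. Hxt1 and Hxt3 are low-affinity carriers used when glucose is plentiful, Hxt2, Hxt4, Hxt6 and Hxt7 are carriers of higher affinity used when it is scarce, and Hxt5 is known from slow growth and stationary phase. Snf3 and Rgt2 are transporter-like proteins of the plasma membrane that do not carry glucose but signal its presence, Snf3 at low and Rgt2 at high glucose. Their signal leads to the breakdown of Mth1 and Std1, which frees HXT promoters from the repressor Rgt1. At high glucose the repressor Mig1 acts on promoters of the high-affinity carriers. Swi/Snf is known for clearing nucleosomes from promoters of several genes of sugar use.

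Positions were read from the R64 annotation, and each member has 1 coding exon. HXT4, HXT1 and HXT5 lie in a row on the minus strand of chrVIII, with coding regions at chrVIII:287081-288811, chrVIII:290913-292625 and chrVIII:294669-296447. HXT7, HXT6 and HXT3 form a second row on the minus strand of chrIV, at chrIV:1154216-1155928, chrIV:1159608-1161320 and chrIV:1162957-1164660. HXT2 lies at chrXIII:288079-289704, HXT10 at chrVI:112345-113985, SNF3 at chrIV:111580-114234 and RGT2 at chrIV:213351-215642, all on the plus strand.

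HXT6 and HXT7 differ at 3 of 1713 coding bases, all of them near the end of the gene, between positions 1632 and 1677 counted from the A of the start codon. Their substitutions, with the base of HXT6 first, are T1632C, G1666A and T1677C. The first 1631 bases are the same in both genes. The stretch below holds all the differences, in capitals, and is shown because short reads from any other part of these coding regions cannot be placed in one gene rather than the other. It covers coding positions 1618 to 1677, at chrIV:1159644-1159703 for HXT6 and chrIV:1154252-1154311 for HXT7, minus strand, R64.
HXT6: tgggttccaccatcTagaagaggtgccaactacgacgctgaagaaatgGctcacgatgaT
HXT7: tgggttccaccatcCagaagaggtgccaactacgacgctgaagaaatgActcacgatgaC
The levels of the pair were therefore also taken as a sum. Upstream of the start codon the pair is less alike, with 64.7% identity over an alignment of the nearest 300 bases. The next most alike pairs among the coding regions named here were HXT1 and HXT3 at 81.7% and HXT4 and HXT7 at 81.5%.

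The upstream regions differ in which letters of known repressor and activator motifs they hold. The 1000 bases before each start codon were searched on both strands for CGGANNA, the core bound by Rgt1, for CCCCNC, the core bound by Mig1, and for CCCCT, the element of the stress activators Msn2 and Msn4. CCCCTC matches both of the last 2 motifs, and overlapping matches in a run of C were each counted. HXT3 held 9 Rgt1 matches and HXT1 held 8, whereas the median of 5996 genes was 1 and 66.5% of genes had at least 1. At least 8 Rgt1 matches were found in 0.0334% of genes, a share that includes HXT1 and HXT3 themselves. HXT5 held 4, HXT2, HXT4 and HXT6 held 3 each, HXT7 held 2, and HXT10, SNF3 and RGT2 held 0. Mig1 matches numbered 5 at HXT4, 4 at HXT2, 3 at HXT6 and at HXT7, 2 at HXT1 and 0 at HXT3, and 40.7% of genes had at least 1. Msn2/Msn4 matches numbered 5 at HXT6, 4 at HXT7 and 2 at HXT5, and 55.0% of genes had at least 1. The windows of HXT4, HXT5, HXT6 and SNF3 reach into a neighbouring annotated gene. These are matches of letters only.

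For HXT1, HXT3, HXT4 and HXT5, the transporters with the most marked changes against the wild types apart from the rarely expressed HXT10, the stretch of 250 bases with the most matches is printed, among stretches that end 250 or more bases before the start codon. Matches are in capitals, and the letters read 5′ to 3′ along the gene's strand.
HXT1: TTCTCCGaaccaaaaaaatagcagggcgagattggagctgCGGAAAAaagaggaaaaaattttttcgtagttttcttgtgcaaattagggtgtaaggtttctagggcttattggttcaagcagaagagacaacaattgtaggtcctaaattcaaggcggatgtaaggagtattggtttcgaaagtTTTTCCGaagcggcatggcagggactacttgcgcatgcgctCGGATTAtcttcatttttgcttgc
HXT3: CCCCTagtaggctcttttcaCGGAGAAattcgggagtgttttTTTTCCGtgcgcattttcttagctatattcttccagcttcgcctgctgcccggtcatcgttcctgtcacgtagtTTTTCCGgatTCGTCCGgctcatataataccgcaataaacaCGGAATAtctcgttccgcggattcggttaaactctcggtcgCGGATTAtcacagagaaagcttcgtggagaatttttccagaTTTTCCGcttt
HXT4: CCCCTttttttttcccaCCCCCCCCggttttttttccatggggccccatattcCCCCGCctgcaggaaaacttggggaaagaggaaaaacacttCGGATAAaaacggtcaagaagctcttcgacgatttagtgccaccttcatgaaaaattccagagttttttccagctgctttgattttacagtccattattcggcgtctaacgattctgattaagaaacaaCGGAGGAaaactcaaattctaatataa
HXT5: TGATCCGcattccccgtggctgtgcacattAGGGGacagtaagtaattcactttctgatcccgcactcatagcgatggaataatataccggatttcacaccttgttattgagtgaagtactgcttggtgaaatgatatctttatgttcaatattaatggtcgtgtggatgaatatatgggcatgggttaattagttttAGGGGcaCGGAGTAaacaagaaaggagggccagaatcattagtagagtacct
They lie on the minus strand of R64 at chrVIII:293338-293587 for HXT1, chrIV:1164969-1165218 for HXT3, chrVIII:289081-289330 for HXT4 and chrVIII:296700-296949 for HXT5. The HXT1 stretch has 4 Rgt1 matches. The HXT3 stretch has 7, beside 1 Msn2/Msn4 match. In HXT4 the stretch opens with a Msn2/Msn4 match, the run of 8 C holds 3 overlapping Mig1 matches, CCCCGC further on is a separate Mig1 match, and 2 Rgt1 matches follow. HXT5 shows 2 Rgt1 matches and 2 of the Msn2/Msn4 motif.

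**Figure D1:**
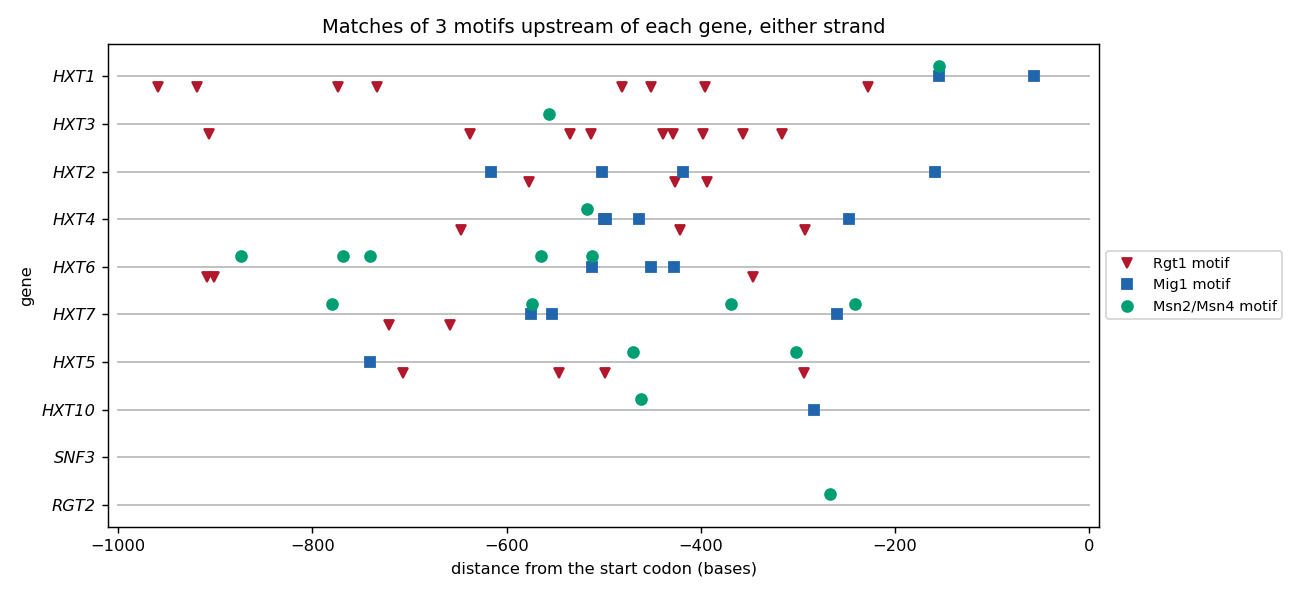
Matches of 3 motifs in the 1000 bases before the start codon of each gene, on either strand. The x axis is the distance from the start codon in bases, and each marker is the middle of a match. HXT3 and HXT1 have 9 and 8 Rgt1 matches, and SNF3 has 0 matches of the 3 motifs.

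Levels are given in TPM, a share of all transcripts in a library corrected for gene length, which carries no information on sequencing depth. The RNA of SWI3 was 0.127 TPM in swi3del and between 33.4 and 45.4 TPM on average in the other groups. LEU2 RNA was 136 TPM on average in swi3del and 151 TPM in snf2del, and at most 0.552 TPM in any library of the other groups. These values go against the genotypes in the labels, in which every group carries LEU2. The part of LEU2 in the results was not tested, and it cannot be told apart from the deletions. RNA of SNF2 was not analysed here. In the deletions the median change over all genes was 0.23 in swi3del and 0.26 in snf2del on the log2 scale, and changes there are also given relative to that median. A smaller shift of 0.10 was seen in snf2-Q928K.

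Among the members, 9 of 10 changed in swi3del against SWI3, with 6 higher and 3 lower, where 71.7% of all genes tested changed. The same count was seen in snf2del against SNF2, again with 6 higher and 3 lower, where 74.8% of genes changed. Both counts, and those of alleles against deletions given further on, include HXT10, which passed the filter on low values only through the deletion libraries in which it is high, so its call is no support. These shares of all genes are high, so that a called member is no rarity in a deletion, and the size and direction of its change say more. In both deletions HXT1, HXT3 and HXT4 fell, HXT5, HXT6, HXT7, HXT10, SNF3 and RGT2 rose, and HXT2 did not pass the test. In swi3-E815X 2 members changed, HXT1 and HXT4, both lower, against a background of 8.84%. In snf2-W935R 5 members changed, against 27.2% of all genes, with HXT3, HXT5 and RGT2 higher and HXT1 and HXT4 lower. In snf2-Q928K 5 members changed too, against 57% of all genes, with HXT2, HXT5 and RGT2 higher and HXT1 and HXT4 lower. A gene counts as changed at a Benjamini-Hochberg adjusted p under 0.05 over all genes tested, by limma on log2 of TPM plus 1.

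**Figure D2:**
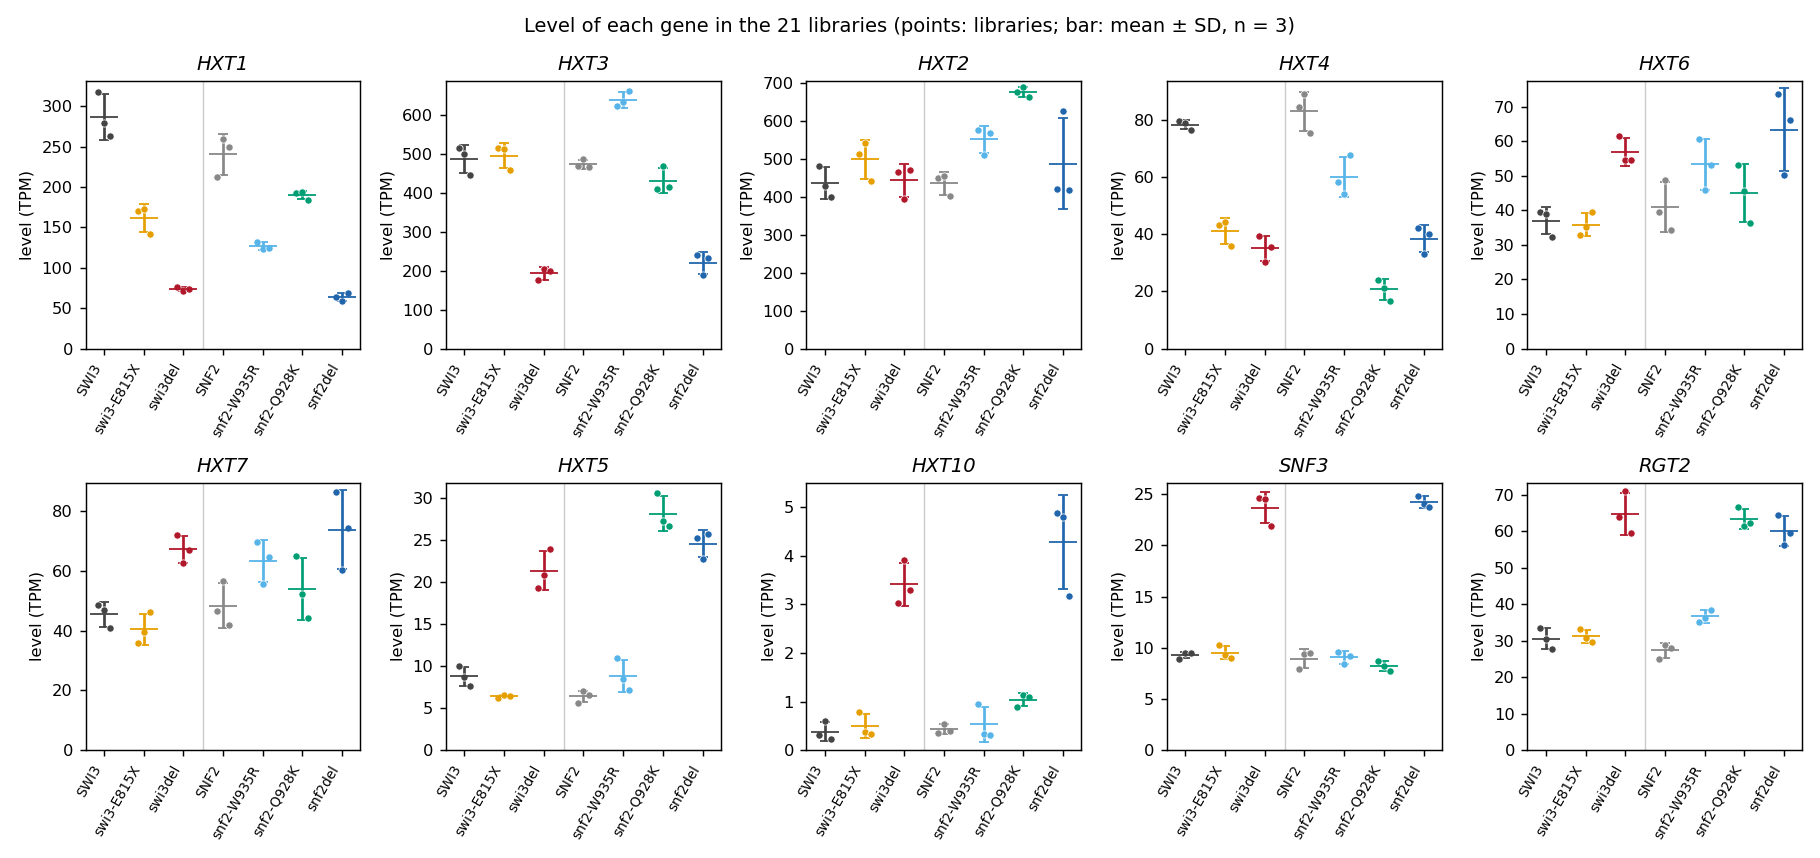
Levels of the 10 genes in TPM, with 1 panel per gene and 1 point per library, and the mean ± SD of the 3 libraries of each group. The vertical line parts the SWI3 family from the SNF2 family. HXT1 and HXT4 sit below their wild type in all 5 mutant groups, and SNF3 is above it in the 2 deletions, where its lowest library is at 21.9 TPM.

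HXT1, the low-affinity carrier of cells with ample glucose, fell in all 5 mutants. Its level was 318, 279 and 263 TPM in the SWI3 libraries, 170, 173 and 142 TPM in swi3-E815X and 76.2, 71.7 and 74.1 TPM in swi3del. It was 212, 259 and 250 TPM in SNF2, 192, 193 and 184 TPM in snf2-Q928K, 132, 123 and 124 TPM in snf2-W935R and 63.5, 58.4 and 68.5 TPM in snf2del. No mutant library reached its wild type, and the libraries of neighbouring groups in the order of means did not overlap. The fall was 3.83-fold in swi3del (log2 change -1.94 ± 0.09 SE, adjusted p = 4.6e-09) and 3.74-fold in snf2del (-1.90 ± 0.08, adjusted p = 4.3e-11). Relative to the median gene these changes were -2.17 and -2.16. The alleles fell less, by 0.82 ± 0.09 in swi3-E815X (adjusted p = 7.6e-05), by 0.92 ± 0.08 in snf2-W935R (adjusted p = 8.0e-07) and by 0.33 ± 0.08 in snf2-Q928K (adjusted p = 0.0026) on the log2 scale. Set against each other, snf2-Q928K had 1.5-fold more HXT1 RNA than snf2-W935R (adjusted p = 5.8e-05).

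HXT3, the other low-affinity carrier, fell in the deletions and went the other way in snf2-W935R. Its level was 517, 500 and 447 TPM in SWI3, 516, 514 and 461 TPM in swi3-E815X and 175, 205 and 201 TPM in swi3del. It was 469, 488 and 466 TPM in SNF2, 625, 634 and 664 TPM in snf2-W935R, 410, 470 and 416 TPM in snf2-Q928K and 240, 189 and 234 TPM in snf2del. The swi3-E815X and snf2-Q928K libraries overlapped their wild types, the deletions lay wholly below them, and every snf2-W935R library lay above every other library of the series. The log2 change was -1.33 ± 0.08 in swi3del (adjusted p = 4.9e-08), -1.11 ± 0.09 in snf2del (adjusted p = 2.1e-08) and 0.43 ± 0.09 in snf2-W935R (adjusted p = 0.0016). In swi3-E815X it was 0.03, with a 95% interval from -0.15 to 0.21. In snf2-Q928K it was -0.14, with an interval from -0.32 to 0.05. With libraries scaled to the median gene this last change passed the test (-0.25, adjusted p = 0.038).

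HXT4, a carrier of higher affinity, also fell in all 5 mutants, but in another order. Its level was 79.4, 78.9 and 76.6 TPM in SWI3, 43.1, 44.3 and 35.9 TPM in swi3-E815X and 39.2, 30.3 and 35.6 TPM in swi3del. It was 84.6, 89.0 and 75.5 TPM in SNF2, 58.2, 53.9 and 67.8 TPM in snf2-W935R, 42.3, 33.1 and 39.9 TPM in snf2del, and 24.1, 21.3 and 16.7 TPM in snf2-Q928K. The lowest group was thus an allele, snf2-Q928K, whose libraries lay below all the deletion libraries. The fall from SNF2 was 3.91-fold in snf2-Q928K (log2 change -1.97 ± 0.13, adjusted p = 2.7e-08) and 2.13-fold in snf2del (-1.09 ± 0.13, adjusted p = 3.4e-06). The direct comparison gave snf2-Q928K 1.83-fold less HXT4 RNA than snf2del (-0.87 ± 0.13, adjusted p = 6.7e-05). In swi3del the change was -1.15 ± 0.10 (adjusted p = 1.1e-06) and in swi3-E815X -0.92 ± 0.10 (adjusted p = 8.4e-05), and the difference between these groups did not pass the test (0.23, 95% interval 0.001 to 0.46, adjusted p = 0.069). Scaled to the median gene, it did (0.49, adjusted p = 0.0023). In snf2-W935R the change was -0.47 ± 0.13 (adjusted p = 0.017), and it lost its call when SNF2 replicate 1 or 2, or snf2-W935R replicate 1 or 2, was left out, with an adjusted p between 0.054 and 0.074.

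HXT2, another carrier of higher affinity and the most abundant of the 10 on average, rose in snf2-Q928K. Its level was 482, 427 and 398 TPM in SWI3, 513, 542 and 441 TPM in swi3-E815X and 466, 393 and 469 TPM in swi3del. It was 448, 455 and 401 TPM in SNF2, 575, 511 and 568 TPM in snf2-W935R, 676, 688 and 662 TPM in snf2-Q928K and 419, 625 and 416 TPM in snf2del. The libraries of snf2-Q928K lay above all others, and snf2del replicate 2 stood apart above the other snf2del libraries. The change in snf2-Q928K was 1.55-fold (log2 change 0.64 ± 0.13, adjusted p = 8.6e-04). In the deletions it was 0.02 in swi3del, with an interval from -0.20 to 0.24, and 0.14 in snf2del, with an interval from -0.14 to 0.41. Relative to the median gene these were -0.21 and -0.12, and without snf2del replicate 2 the change in snf2del was -0.06. In snf2-W935R the change of 0.34 missed the threshold (adjusted p = 0.064), and it passed without snf2del replicate 2 (adjusted p = 0.0013) or 3 (adjusted p = 0.049), libraries of another group that share the estimate of spread.

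The near-identical pair HXT6 and HXT7, high-affinity carriers, rose in the deletions. Their summed level was 88.2, 86.0 and 73.3 TPM in SWI3, 68.8, 74.7 and 85.6 TPM in swi3-E815X and 134, 117 and 122 TPM in swi3del. It was 86.1, 106 and 76.4 TPM in SNF2, 130, 102 and 118 TPM in snf2-W935R, 118, 97.7 and 80.7 TPM in snf2-Q928K and 160, 111 and 141 TPM in snf2del. Deletion libraries lay above their wild type, and neighbouring groups in the order of means overlapped throughout. HXT7 was listed at 1.09 to 1.26 times HXT6 in every library, and the share of either gene is uncertain because their reads are hard to part. As a sum the pair rose by 0.59 ± 0.10 in swi3del (adjusted p = 2.0e-04) and by 0.61 ± 0.17 in snf2del (adjusted p = 0.0075) on the log2 scale. As separate rows, HXT6 rose by 0.61 in swi3del and 0.62 in snf2del, and HXT7 by 0.56 and 0.59. The snf2del calls were lost when libraries were scaled to the median gene, with adjusted p = 0.10 for HXT6 and 0.095 for HXT7. In snf2-W935R the sum changed by 0.39 (adjusted p = 0.13), in snf2-Q928K by 0.14 and in swi3-E815X by -0.11, none past the test.

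HXT5, the carrier known from slow growth, was low in the wild types and rose in the deletions and in snf2-Q928K. Its level was 9.97, 8.72 and 7.71 TPM in SWI3, 6.19, 6.6 and 6.42 TPM in swi3-E815X and 19.3, 20.8 and 23.9 TPM in swi3del. It was 5.62, 7.0 and 6.59 TPM in SNF2, 11, 8.44 and 7.19 TPM in snf2-W935R, 30.6, 27.2 and 26.7 TPM in snf2-Q928K and 25.3, 22.8 and 25.7 TPM in snf2del. All 3 high groups stood clear of the others. The rise was 3.95-fold in snf2-Q928K (log2 change 1.98 ± 0.13, adjusted p = 1.4e-08), 3.46-fold in snf2del (1.79 ± 0.13, adjusted p = 1.2e-08) and 2.29-fold in swi3del (1.19 ± 0.13, adjusted p = 4.7e-06). On the deposited scale snf2-Q928K and snf2del differed by 0.19 (adjusted p = 0.22, 95% interval -0.09 to 0.47), and scaled to the median gene snf2-Q928K was higher (0.33, adjusted p = 0.045). In snf2-W935R the rise of 0.40 ± 0.13 (adjusted p = 0.034) lost its call when any 1 of SNF2 replicates 1 and 3 and snf2-W935R replicates 1 and 2 was left out, with values between 0.25 and 0.42, and also with quantile scaling (0.25, adjusted p = 0.16), with a pseudocount of 5 (0.27, adjusted p = 0.051) and with only SNF2 and snf2-W935R in the fit (0.40, adjusted p = 0.10). In swi3-E815X the change was -0.40 (adjusted p = 0.081), with every library below those of SWI3. It passed the test in 2 of 19 alternatives. These were all 21 libraries in the fit (adjusted p = 0.045) and moderation without trend or robust weights (adjusted p = 0.047).

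HXT10, a rarely expressed member of the family, reached 1 TPM in 8 of 21 libraries and passed the filter on low values through the deletions, so that its call there is a description. Its level was 0.321, 0.599 and 0.233 TPM in SWI3 and 3.03, 3.91 and 3.29 TPM in swi3del. It was 0.355, 0.545 and 0.393 TPM in SNF2, 0.900, 1.13 and 1.10 TPM in snf2-Q928K and 4.88, 4.81 and 3.18 TPM in snf2del. The swi3-E815X and snf2-W935R libraries lay between 0.310 and 0.952 TPM and overlapped their wild types. On the log2 scale of TPM plus 1, which understates the change of low genes, HXT10 was 1.68 ± 0.28 higher in swi3del and 1.87 ± 0.24 higher in snf2del.

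The sensor genes were both higher in the deletions, and only RGT2 passed the test in the SNF2 alleles. SNF3, the sensor of low glucose, stood at 8.94, 9.46 and 9.45 TPM in SWI3, 10.2, 9.31 and 9.03 TPM in swi3-E815X and 24.6, 24.6 and 21.9 TPM in swi3del. It stood at 7.90, 9.39 and 9.53 TPM in SNF2, 9.58, 8.38 and 9.24 TPM in snf2-W935R, 8.70, 8.18 and 7.77 TPM in snf2-Q928K and 24.8, 24.1 and 23.8 TPM in snf2del. The deletion libraries stood apart from all others, while the 3 alleles overlapped their wild types. SNF3 rose 2.40-fold in swi3del (log2 change 1.26 ± 0.10, adjusted p = 4.3e-07) and 2.54-fold in snf2del (1.35 ± 0.11, adjusted p = 2.4e-08). Its change was 0.03 in swi3-E815X (95% interval -0.19 to 0.26), 0.02 in snf2-W935R (-0.20 to 0.25) and -0.11 in snf2-Q928K (-0.33 to 0.12). With quantile scaling of the libraries the last was -0.41 (adjusted p = 0.0017).

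RGT2, the sensor of high glucose, stood at 33.5, 30.5 and 27.7 TPM in SWI3, 33.2, 30.8 and 29.7 TPM in swi3-E815X and 63.9, 71.0 and 59.6 TPM in swi3del. It stood at 25.1, 28.9 and 28.0 TPM in SNF2, 35.1, 36.4 and 38.6 TPM in snf2-W935R, 66.6, 61.3 and 62.4 TPM in snf2-Q928K and 64.4, 56.3 and 59.5 TPM in snf2del. The libraries of snf2-Q928K thus overlapped those of the deletions, and those of snf2-W935R just above the wild types. RGT2 rose 2.09-fold in swi3del (log2 change 1.06 ± 0.09, adjusted p = 8.1e-07), 2.16-fold in snf2del (1.11 ± 0.08, adjusted p = 7.5e-09), 2.28-fold in snf2-Q928K (1.19 ± 0.08, adjusted p = 1.3e-08) and 1.33-fold in snf2-W935R (0.41 ± 0.08, adjusted p = 0.0011). In swi3-E815X the change was 0.03, with an interval from -0.17 to 0.23. The ratio of RGT2 to SNF3 was 7.73 ± 0.27 (SD, n = 3) in snf2-Q928K and between 2.48 and 4.06 on average in the other 6 groups. The ratio was 3.07 ± 0.12 in SNF2 and 2.48 ± 0.13 in snf2del.

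**Figure D3:**
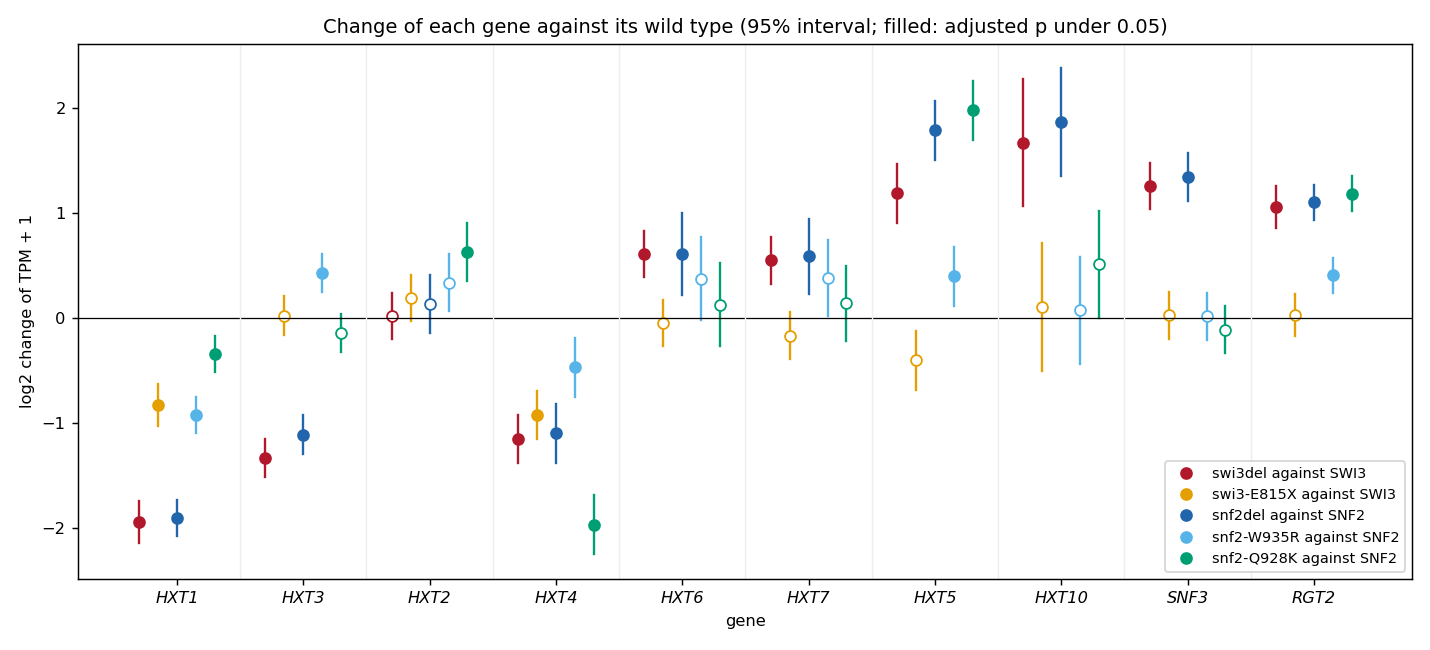
Log2 change of TPM plus 1 of each gene in each mutant against its wild type, with 95% intervals. Filled points passed the test and open points did not. The snf2-Q928K points for HXT4 and HXT5 lie at -1.97 and 1.98, and its SNF3 point at -0.11.

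The alleles were also compared with their deletions. From swi3del to swi3-E815X 8 members changed, 2 higher and 6 lower, where 68.9% of all genes changed. HXT1 was 2.16-fold and HXT3 2.56-fold higher in swi3-E815X, and HXT5, HXT6, HXT7, HXT10, SNF3 and RGT2 were lower. Scaled to the median gene 10 members were called, with HXT2 (0.43, adjusted p = 0.0034) and HXT4 (0.49, adjusted p = 0.0023) also higher in swi3-E815X. From snf2del to snf2-W935R 7 members changed, 3 higher and 4 lower, against 72% of all genes, with HXT3 2.91-fold higher and SNF3 2.51-fold lower. HXT2 was not called there (0.20, adjusted p = 0.17). It was called higher in snf2-W935R when scaled to the median gene (0.44, adjusted p = 0.0069) or without snf2del replicate 2 (0.40, adjusted p = 2.3e-04). From snf2del to snf2-Q928K 8 changed, 3 higher and 5 lower, against 62.8% of all genes, with HXT1 2.96-fold higher and SNF3 2.74-fold lower. HXT4 is among the 5 lower calls, further from SNF2 than snf2del was, and HXT2 is among the higher calls, above both SNF2 and snf2del. HXT5 (0.19, 95% interval -0.09 to 0.47) and RGT2 (0.08, 95% interval -0.09 to 0.24) did not pass the test there, although scaled to the median gene both were higher in snf2-Q928K (0.33 and 0.22, adjusted p = 0.045 and 0.021). The lower calls of HXT6 (-0.48, adjusted p = 0.034) and HXT7 (-0.45, adjusted p = 0.032) there were lost when libraries were scaled to the median gene, and without either of snf2-Q928K replicates 2 and 3 or snf2del replicates 1 and 3. These comparisons share libraries with those against the wild types.

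The alleles also differed among themselves. Between the ATPase alleles 5 members changed, where 44% of all genes changed. In snf2-Q928K, relative to snf2-W935R, HXT5 was 2.99-fold (adjusted p = 7.7e-07) and RGT2 1.71-fold higher (adjusted p = 4.1e-06) beside HXT1, whereas HXT4 was 2.83-fold (adjusted p = 2.0e-06) and HXT3 1.49-fold lower (adjusted p = 1.1e-04). The SNF3 difference was -0.13, with an interval from -0.35 to 0.10. Between snf2-W935R and swi3-E815X 6 members changed, 5 higher and 1 lower in snf2-W935R, where 19% of all genes changed. HXT4 was 1.45-fold and HXT3 1.29-fold higher in snf2-W935R, HXT7 was 1.55-fold, HXT6 1.47-fold and HXT5 1.32-fold higher, and HXT1 was 1.27-fold lower. HXT5 lost this call without any 1 of the swi3-E815X libraries or of snf2-W935R replicates 1 and 2. It also lost it with scaling to the median gene (0.36, adjusted p = 0.050). HXT6 lost its call without any 1 of swi3-E815X replicates 1 and 2 and snf2-W935R replicate 1. This contrast crosses the families and also holds any difference of their wild types. From SWI3 to SNF2 HXT1 changed by -0.25 and HXT5 by -0.40, neither called. Against its own wild type, HXT1 changed by -0.92 in snf2-W935R and by -0.82 in swi3-E815X. HXT5 changed by 0.40 and -0.40 in the same order. The difference of these allele effects was not tested.

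Between the families, no difference of wild types or deletions was called. From SWI3 to SNF2 0 members changed by limma, with 2 at an unadjusted p under 0.05, where 3.97% of all genes changed. HXT1 was 287 ± 28.4 TPM in SWI3 and 240 ± 25 TPM in SNF2 (log2 difference -0.25, adjusted p = 0.12). From swi3del to snf2del 0 members changed, with 2 at an unadjusted p under 0.05, where 0.453% of all genes changed. The effect of the SNF2 deletion less that of the SWI3 deletion was tested as an interaction, with 0 members called and 1 at an unadjusted p under 0.05, where 2.28% of all genes were called. That member was HXT5, with a difference of 0.60 ± 0.18 (95% interval 0.23 to 0.98, adjusted p = 0.10). HXT5 changed by -0.40 from SWI3 to SNF2 (adjusted p = 0.085) and by 0.20 from swi3del to snf2del (adjusted p = 0.57). Its difference of deletion effects thus draws on the wild types as well as on the deletions, and neither contrast was called. For the other 9 members the difference lay between 0.0036 and 0.22.

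Summed over the 8 transporter genes, the level was lower in the deletions and HXT2 made up more of it. The sum was 1495, 1381 and 1266 TPM in SWI3, 1318, 1355 and 1172 TPM in swi3-E815X and 913, 842 and 928.1 TPM in swi3del. It was 1306, 1405 and 1276 TPM in SNF2, 1532, 1433 and 1550 TPM in snf2-W935R, 1452, 1499 and 1387 TPM in snf2-Q928K and 956, 1043 and 929 TPM in snf2del. All deletion libraries lay below all others, and the lowest snf2-W935R library lay above the highest SNF2 library. HXT1 made up 20.8% ± 0.53 of the sum in SWI3, 12.6% ± 0.42 in swi3-E815X and 8.28% ± 0.28 in swi3del (SD, n = 3). Its share was 18.1% ± 1.7 in SNF2, 13.1% ± 0.20 in snf2-Q928K, 8.42% ± 0.34 in snf2-W935R and 6.54% ± 0.90 in snf2del. The share of HXT1 in snf2-W935R was thus near that in swi3del, at a total above that of SNF2. Every snf2-W935R library had a larger share (8.02% to 8.62%) than every snf2del library (5.60% to 7.38%). HXT1 RNA itself was 1.98-fold higher in snf2-W935R than in snf2del (limma, adjusted p = 6.2e-08). The share also depends on the other genes of the sum, among them HXT3, at 641 TPM on average in snf2-W935R and 474 TPM in SNF2. HXT2 made up 31.6% ± 0.67 in SWI3 and 49.4% ± 2.4 in swi3del, and 32.7% ± 1.5 in SNF2, 46.7% ± 0.91 in snf2-Q928K and 49.5% ± 9.0 in snf2del. The snf2del mean rests in part on replicate 2, at 59.9%, beside 43.9% and 44.8% in the others. The share of HXT6 and HXT7 together was 5.97% ± 0.23 in SWI3 and 13.9% ± 0.77 in swi3del, and 6.70% ± 0.76 in SNF2 and 14.2% ± 3.2 in snf2del. These shares carry no test.

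**Figure D4:**
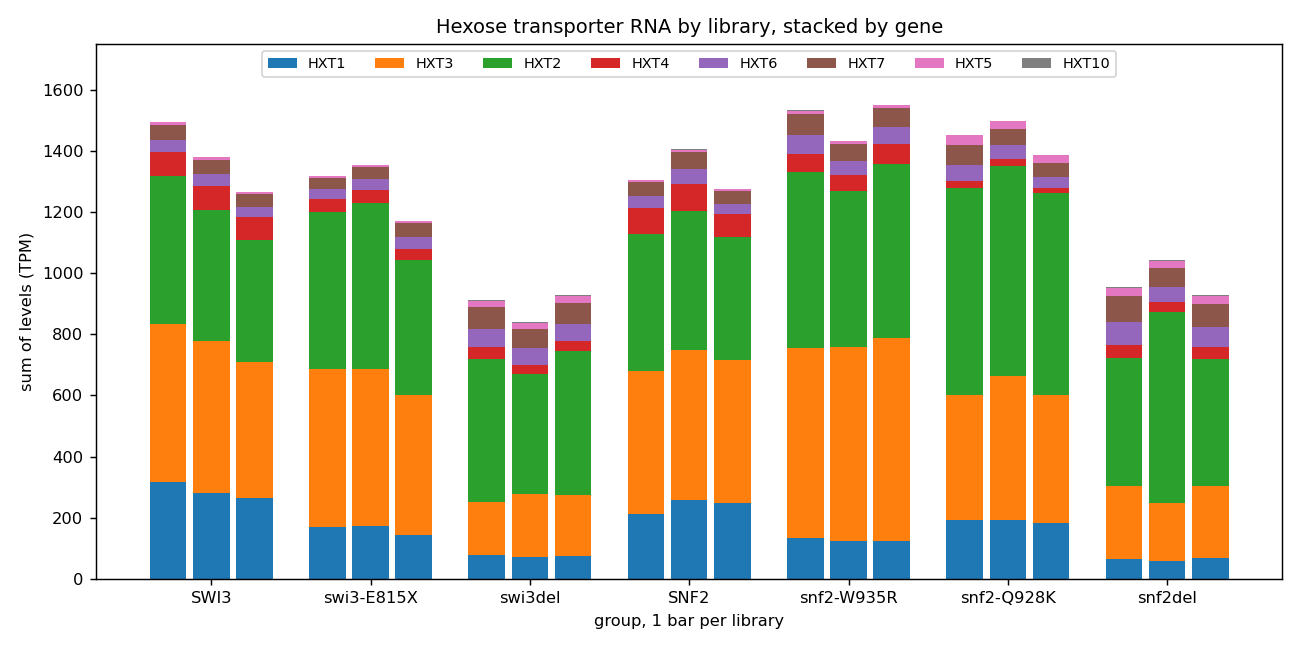
Sum of the levels of 8 transporter genes in TPM, with 1 stacked bar for each of the 21 libraries and 1 color per gene. Bars of the deletions reach 842 to 1043 TPM, and all others 1172 to 1550 TPM.

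Genes that act beside these transporters were taken as lists, and each list is given by its counts and its median change on the log2 scale. Over all genes the median change was 0.23 in swi3del, -0.03 in swi3-E815X, 0.26 in snf2del, 0.03 in snf2-W935R and 0.10 in snf2-Q928K, and 71.7%, 8.84%, 74.8%, 27.2% and 57% of genes were called in the same order. The 4 sugar kinase genes, whose products phosphorylate glucose after uptake, were higher in both deletions and in both SNF2 alleles (4 of 4 each), and 0 of 4 were called in swi3-E815X, with 1 at an unadjusted p under 0.05 by limma. Their median change was 2.05 in swi3del, 0.03 in swi3-E815X, 2.34 in snf2del, 0.58 in snf2-W935R and 1.3 in snf2-Q928K. GLK1, for glucokinase, went from 83.5 ± 10 TPM in SWI3 to 602 ± 35.1 TPM in swi3del, and from 73.5 ± 9.9 TPM in SNF2 to 186 ± 21.3 TPM in snf2-W935R, 469 ± 37.8 TPM in snf2-Q928K and 741 ± 15.8 TPM in snf2del (mean ± SD, n = 3). HXK1, for a hexokinase of cells short of glucose, rose by 2.10 in swi3del, 2.51 in snf2del, 0.64 in snf2-W935R and 1.23 in snf2-Q928K on the log2 scale. EMI2, a paralog of GLK1, rose by 2.01, 2.18, 0.51 and 1.37 in the same order. HXK2, for the main hexokinase on glucose, rose least, by 0.46, 0.73, 0.53 and 0.62.

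The other transporters of the family that are in the table, 8 genes of low level, were called higher in 6 cases in swi3del and 7 in snf2del, and lower in 0. Of all genes, 71.7% and 74.8% were called there in either direction, so the called share in swi3del was near the background. Scaled to the median gene, 6 were higher in each deletion. Their median changes were 0.84 and 1.03, beside 0.23 and 0.26 over all genes, and 0.09 in swi3-E815X, 0.25 in snf2-W935R and 0.39 in snf2-Q928K. HXT9 went from 1.97 ± 0.67 TPM in SWI3 to 8.74 ± 0.53 TPM in swi3del and from 1.92 ± 0.31 TPM in SNF2 to 8.77 ± 0.54 TPM in snf2del. HXT11 rose by 1.33 and 1.46 in the deletions, by 0.67 in snf2-W935R and by 0.77 in snf2-Q928K. Copies of this family are alike in sequence, and reads may be shared among them. HXT14 and HXT17 were not analysed here.

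Of 8 regulators of the sensor pathway, 3 were called higher and 1 lower in swi3del, and 4 higher and 2 lower in snf2del, where 71.7% and 74.8% of all genes were called. The medians were 0.02 and 0.21, beside 0.23 and 0.26 over all genes, and -0.18 in swi3-E815X, 0.11 in snf2-W935R and 0.14 in snf2-Q928K. The called share was thus not above that of all genes in swi3del and near it in snf2del. When libraries were scaled to the median gene the counts became 1 higher and 4 lower in swi3del, and 2 higher and 3 lower in snf2del. MTH1, whose product holds Rgt1 on HXT promoters, rose by 1.08 ± 0.10 in swi3del (adjusted p = 1.1e-06) and by 0.91 ± 0.13 in snf2del (adjusted p = 1.8e-05), and fell by 0.57 in swi3-E815X (adjusted p = 0.0024) and by 0.33 in snf2-Q928K (adjusted p = 0.047). Its mean level was 15.3 TPM in SWI3, 9.94 TPM in swi3-E815X and 33.4 TPM in swi3del, and 16.9 TPM in SNF2, 15.5 TPM in snf2-W935R, 13.2 TPM in snf2-Q928K and 32.8 TPM in snf2del. STD1, its paralog, fell by 0.37 in snf2del and by 0.39 in snf2-Q928K. Its change of -0.15 in swi3del, where the median change over all genes was 0.23, did not pass the test. RGT1, for the repressor itself, rose by 0.31 in swi3del, 0.45 in snf2del and 0.33 in snf2-Q928K. The rise in swi3del was lost with scaling to the median gene (0.08).

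Of 13 genes of the Snf1 kinase and its Mig repressors, 4 were higher and 5 lower in swi3del, and 5 higher and 3 lower in snf2del, where 71.7% and 74.8% of all genes were called, so the called share was near or below the background. The medians were -0.04 and -0.03, beside 0.23 and 0.26 over all genes, and -0.13 in swi3-E815X, 0.05 in snf2-W935R and 0.02 in snf2-Q928K. Scaled to the median gene these counts were 4 higher and 8 lower, and 4 higher and 7 lower. MIG2, for a glucose repressor, rose by 1.46 in swi3del, 1.29 in snf2del, 1.15 in snf2-Q928K and 0.30 in snf2-W935R. MIG3, its relative, fell in all 5 mutants, by 0.75 in swi3del, 0.72 in swi3-E815X, 0.50 in snf2del, 0.61 in snf2-W935R and 0.41 in snf2-Q928K. MIG1 rose by 0.56 in swi3del, 0.53 in snf2del and 0.41 in snf2-Q928K. SIP2, for a subunit of the kinase, rose in all 5, from 0.36 in snf2-W935R to 1.44 in swi3del.

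Of 7 genes for arrestins and ubiquitin ligases that act in the turnover of transporters at the membrane, 6 were called higher in each deletion and in snf2-Q928K, and 1 in snf2-W935R, where 71.7% (swi3del), 74.8% (snf2del), 57% and 27.2% of all genes were called in either direction. In swi3-E815X 0 were called by limma, with 2 at an unadjusted p under 0.05. The median change was 0.65 in each deletion, beside 0.23 and 0.26 over all genes, and -0.14 in swi3-E815X, 0.06 in snf2-W935R and 0.43 in snf2-Q928K. Scaled to the median gene these were 5, 5, 4 and 1, with 1 lower in snf2del. CSR2, for an arrestin, went from 3.56 ± 0.22 TPM in SWI3 to 24.9 ± 2.2 TPM in swi3del and from 3.52 ± 0.20 TPM in SNF2 to 28.9 ± 2.9 TPM in snf2del. Of 16 genes known to be repressed by glucose, 13 were higher and 1 lower in swi3del, and 14 higher and 1 lower in snf2del, where 71.7% and 74.8% of all genes were called. The medians were 1.16 and 1.5, beside 0.23 and 0.26 over all genes, and 0.04 in swi3-E815X, 0.23 in snf2-W935R and 0.78 in snf2-Q928K. SUC2, for invertase, rose by 1.08 in swi3del, 1.42 in snf2del, 0.27 in snf2-W935R and 0.45 in snf2-Q928K. On the deposited scale the gene that fell was ADH2, whose coding region is 88.8% identical to that of ADH1, so that reads may be shared. Scaled to the median gene, 13 of this list were higher and 2 lower in swi3del, and 14 higher and 1 lower in snf2del.

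**Figure D5:**
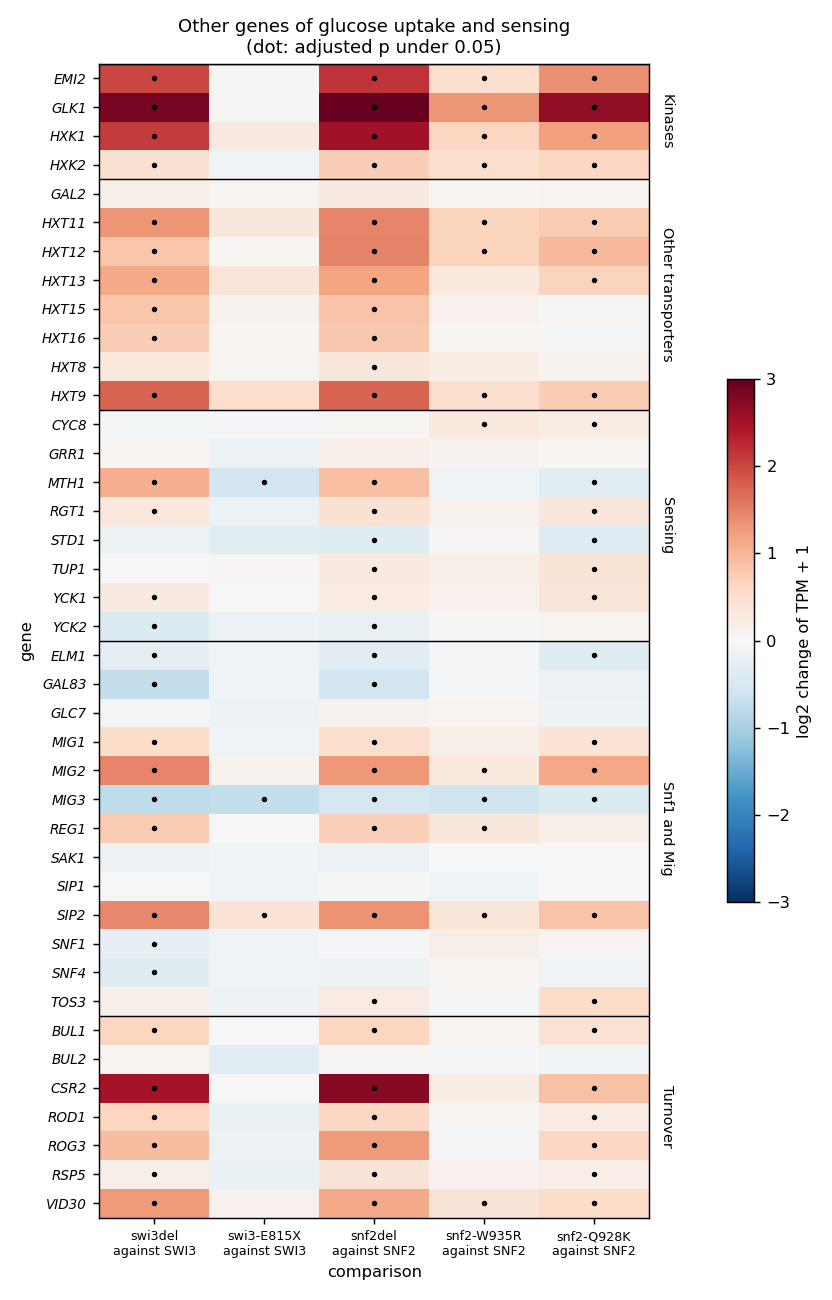
Log2 change of TPM plus 1 of 40 genes of glucose uptake and sensing in the 5 mutants against their wild types, from blue (lower) to red (higher). A dot marks a change that passed the test. The kinase rows hold 4 dots each, with none in the swi3-E815X column.

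Genes with a profile like that of a member were found by the distance between 7 group means of log2 TPM plus 1, each centred on its own mean, among 5760 genes of at least 10 TPM on average. For HXT1 the nearest were PHO81 (0.20), RSN1 (0.20) and YLR410W-B (0.21). For HXT3 they were ADH1 (0.10), ADH2 (0.11) and FBA1 (0.14). ADH1 averaged 7539 TPM in SWI3 and 2712 TPM in swi3del, and 7008 TPM in SNF2, 8679 TPM in snf2-W935R and 2734 TPM in snf2del. For HXT5 the nearest were MSC1 (0.16), YAR066W (0.17) and FMP45 (0.18). For the sum of HXT6 and HXT7 they were NVJ1 (0.06), MIC60 (0.07) and COX8 (0.08). These distances are a description over 7 groups and carry no test.

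The authors' deposited tables of fold changes list 8 of the members in at least 1 comparison, and HXT6 and HXT7 have no entry used here. In the authors' deposited table HXT1 changed by -2.20 in swi3del, -0.79 in swi3-E815X, -2.18 in snf2del, -0.96 in snf2-W935R and -0.44 in snf2-Q928K. In the authors' deposited table for snf2-Q928K, HXT4 changed by -2.11 and HXT5 by 2.02. In the authors' deposited table for swi3del, the adjusted p was 0.11 for HXT5, 0.085 for SNF3 and 0.20 for HXT10, above the threshold that all 3 pass in the fit used here. In the authors' deposited table for snf2-W935R, the adjusted p was 0.37 for HXT4 and 0.93 for RGT2, again above it, and 0.0027 for HXT3. HXT5, also called in the fit used here, has no adjusted p in that deposited table (0.41 ± 0.74 SE, unadjusted p = 0.58). The authors' deposited table for snf2del holds 2202 entries, all with an adjusted p under 0.05, whereas each of the others holds 6186. HXT2, HXT10 and SNF3 are not among the 2202, although HXT10 and SNF3 were called in the fit used here.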

How the data were processed

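Polyadenylated RNA of 21 libraries was sequenced with a directional kit, per the labels' protocols. The submitters' processing notes name HISAT2, StringTie, DESeq2 and the builds sacCer3 and R64 (the same assembly), with versions not given in the sources used here. The deposited table holds TPM for 6407 genes, per the file headers. TPM carries no depth, so counting errors are not stated, and a rise of abundant genes lowers the rest. The authors' 5 deposited tables give a log2 fold change with its standard error, a test score and p-values, per the file headers, and their input is not stated.

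Log2 values of TPM (pseudocount 1) were tested by limma 3.58.1 (R 4.3.3, statmod 1.5.0) with robust, trended variance moderation. Genes entered a fit when 3 or more of its libraries reached 1 TPM. The SWI3 family (9 libraries), the SNF2 family (12 libraries) and, for comparisons across families, all 21 libraries were fitted apart, giving 13 comparisons. P-values are two-sided, adjusted by Benjamini-Hochberg over all genes tested. Fold changes are on the scale of TPM plus 1. All 10 members passed the filter in each fit. The fit was tested on simulated data.

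The members and gene lists were chosen with earlier results of these data known. Genes were named by a rule: the members, SWI3 and LEU2, at most 4 called genes of each list with the smallest p in the deletions, MTH1, STD1, RGT1, MIG1, MIG2, MIG3, HXK1, HXK2, GLK1, EMI2 and SUC2, and the 3 genes with the nearest profile. ADH2 was named as a member of a list after its values were seen. Alternatives were other pseudocounts, no filter, scaling by median ratios (to the median gene) or quantiles, moderation without trend or robust weights, more or fewer groups in the fit, a replicate block, HXT6 and HXT7 summed, and each library left out. Sequences were read from the RefSeq R64 genome with Python 3.11.15 and aligned with Biopython 1.88. Figures were drawn with matplotlib 3.10.9.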

Additional observations from a re-analysis of the deposited data

How the results depend on the processing

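Counts of called members stayed within 1.5 times the reported count under every alternative run except 1 comparison with libraries left out. For snf2-W935R against SNF2, reported as 5, leaving out 1 library gave 3 to 6 called members, with 3 without SNF2 replicate 1, snf2-W935R replicate 1 or snf2-W935R replicate 2. The labels put replicates on separate days but do not say that a number marks a day shared between strains. The numbers were not taken as pairs. Deviations of same-numbered libraries correlated above 0.1 in 3 of 9 pairs of the SWI3 family (-0.01 to 0.18). The same held for 1 of 18 pairs of the SNF2 family (-0.18 to 0.17) and 5 of 36 across families (-0.31 to 0.20). These values do not decide whether numbers mark shared days. With the replicate block the counts were 9 in both deletions, 2 in swi3-E815X and 5 in each SNF2 allele, the same as without it, and the block moved no other count. Of 3089 alternative values of single members, 3023 stayed on their side of the threshold, 37 lost their call, 29 gained one and 0 calls changed sign, where sign changes of values never called were not counted. The cause of these changes was not tested. Scaling to the median gene moved the median of all genes by 0.23 in swi3del, 0.25 in snf2del and 0.11 in snf2-Q928K. It made the split of all calls 2293 higher and 2280 lower in swi3del (3029 and 1554 as deposited), 2430 and 2414 in snf2del (3212 and 1574), 1865 and 1929 in snf2-Q928K (2320 and 1326), and left 7 of 10 members called in snf2del. Between mutants the split became 2178 higher and 2128 lower from swi3del to swi3-E815X (1335 and 3071 as deposited), 2381 and 2304 from snf2del to snf2-W935R (1500 and 3105), 2100 and 1897 from snf2del to snf2-Q928K (1424 and 2592), 1468 and 1396 from snf2-W935R to snf2-Q928K (1918 and 900) and 631 and 636 from swi3-E815X to snf2-W935R (791 and 424). HXT10 has no value in swi3del without any 1 of the swi3del libraries, since it then misses the filter. With HXT6 and HXT7 summed, 8 of 9 features were called in each deletion. What depth limits cannot be told from TPM.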
